A study of Mus musculus with 4 samples.

Results

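Messenger RNA of Mfsd2a and of 7 genes that make or remodel phosphatidylcholine was compared between livers of fasted and refed mice. The 8 genes are Mfsd2a, Chka, Chkb, Pcyt1a, Pcyt2, Pemt, Lpcat3 and Cept1, and their probes were found by taking every gene spot that carried one of these names, which gave 13 of 39429 probes and 8 of 31709 gene names on the array. Male C57BL/6J mice aged 8 to 12 weeks went without food for 24 h, and their livers were taken then (fasted, 4 livers) or after a further 2 h with food (refed, 4 livers). No genotype, transgene or drug differed between the groups, and the refed animals had been through the same 24 h fast. Each of 4 arrays held 1 fasted and 1 refed liver in different dyes, paired at random, with the fasted liver in Cy5 (red) on arrays 1 and 2 and in Cy3 (green) on arrays 3 and 4. Each array gave 1 log2 ratio of fasted over refed liver per probe (n = 4), and each liver a normalized log2 intensity, here called its level. A level belongs to its own probe and is set against no other probe. Whole livers were measured, so that fewer cells of a type and less RNA per cell cannot be told apart.

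Phosphatidylcholine is the main phospholipid of liver membranes, and it also coats the lipoproteins and enters the bile that the liver secretes. Hepatocytes make it from choline by the CDP-choline (Kennedy) pathway, in which choline kinase, CTP:phosphocholine cytidylyl transferase and a choline phosphotransferase act in turn, or by methylating phosphatidylethanolamine. Its acyl chains are exchanged through lysophosphatidylcholine, and lysophosphatidylcholine is also what MFSD2A, a sodium-dependent carrier best known at the blood-brain barrier, takes into cells.

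Labels and tissue were checked first. All 6 hepatocyte markers (Alb, Ttr, Apoa1, Apob, Tat and Cps1) were well above background, and the summed intensity of the list was 249390.0 to 297969 in fasted and 208453 to 263204 in refed livers. Of the 6, 1 was called, Tat, a fasting-induced enzyme of tyrosine breakdown, at a log2 ratio of 0.84. The refed liver of array 3 stood apart. Its 3 measurable pancreatic acinar markers of 10 (Clps, Ctrb1 and Cel) summed to 17156. The sum was 411 in the lowest refed liver and 436 to 993 in the fasted livers. Ctrb1 had a level of 13.18 in the refed liver of array 3 and 7.66 to 8.23 in the other refed livers. The fasted liver of array 3 was the highest fasted liver for all 3 markers, with Ctrb1 at 9.40 against 7.88 to 8.21. The other 7 acinar markers did not pass the filter on dim probes. Among refed livers, that of array 3 was also highest for the hepatocyte, adipose (219.7), cholangiocyte (448.6) and stellate (605.6) sums. The fasted livers reached 187.3, 336.0 and 522.1 for the last 3 lists. It was not the highest refed liver for the blood, macrophage and leukocyte, or endothelial lists. The part of these lists in the ratios of the 8 genes was not tested. Blood transcripts also differed: Hba-a1, an alpha globin gene, had levels of 15.86, 14.33, 16.39 and 14.01 in fasted and 13.41, 14.59, 13.90 and 13.67 in refed livers, so that the fasted livers of arrays 1 and 3 stood above all others. The mean log2 ratios of the 2 measurable blood markers of 3 (Hba-a1 and Alas2) were 1.42, -0.27, 1.80 and 0.19, 0 of them were called, and their summed intensity was 19102 to 89512 in fasted and 12476 to 27199 in refed livers. The part of blood in the ratios of the 8 genes was not tested. Values without array 3 are given beside the ratios that lead the results. Median brightness of gene spots rose from array 1 to array 4, from 40 to 75 in red and from 44 to 96 in green. Median local backgrounds were 25 to 35 and 20 to 32.5. Precision is limited by there being 4 arrays. All 13 probes of the 8 genes were well above background on 4 of 4 arrays in both conditions.

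The promoters of the 3 genes with the highest ratios, Mfsd2a, Chkb and Lpcat3, are shown because the study that made these arrays dealt with CREB, which binds the cAMP response element (CRE). The sequences are RefSeq's, in the GRCm38.p6 build, 5′ to 3′ on the strand of the gene, and they stop at the annotated start or before it. Mfsd2a is chr4:122961195-122961438 on the minus strand, Chkb is chr15:89429928-89430177 on the minus strand, and Lpcat3 is chr6:124662854-124663093 on the plus strand. Capitals mark a TATA box and the first 4 of the 5 letters of a CRE half-site read on the other strand, both in Chkb.
Mfsd2a: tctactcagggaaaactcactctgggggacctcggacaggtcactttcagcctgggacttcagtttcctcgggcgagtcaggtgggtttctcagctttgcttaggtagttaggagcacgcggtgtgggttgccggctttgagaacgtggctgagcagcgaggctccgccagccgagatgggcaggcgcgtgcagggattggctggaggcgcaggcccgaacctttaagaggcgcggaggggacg
Chkb: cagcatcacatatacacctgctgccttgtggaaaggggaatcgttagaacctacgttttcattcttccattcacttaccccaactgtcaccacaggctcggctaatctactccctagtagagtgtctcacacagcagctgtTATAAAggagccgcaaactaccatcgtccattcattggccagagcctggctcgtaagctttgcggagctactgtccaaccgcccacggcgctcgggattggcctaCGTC
Lpcat3: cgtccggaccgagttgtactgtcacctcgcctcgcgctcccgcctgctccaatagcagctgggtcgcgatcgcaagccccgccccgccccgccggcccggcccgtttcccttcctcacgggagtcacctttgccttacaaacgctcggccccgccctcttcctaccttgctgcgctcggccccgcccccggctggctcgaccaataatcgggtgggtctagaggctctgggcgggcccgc

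The 3 stretches differ in composition, with 61.9% G and C for Mfsd2a, 52.4% for Chkb and 70.4% for Lpcat3. Motifs were searched as exact letters on both strands from 250 bases before to 50 bases after each annotated start, in the 12 windows of the 7 genes that the promoter table held. The full CRE (TGACGTCA), which 1.79% of all 32851 promoter windows hold, was in none of them. The CRE half-site (TGACG), which every full CRE contains and 20.8% of all windows hold, occurred in windows of 3 of the 7 genes, against 23% of all 27025 genes with a window. Counted from the start, it began at -4 on the other strand in Chkb, at 3 in Chka and at -41 in 1 window of Pcyt1a. The TATA box (TATAAA), held by 13.6% of windows, occurred in Chkb at -109. DR1, a direct repeat of the nuclear receptor half-site AGGTCA with 1 base (N) between, is held by 0.0396% of windows and was not found. None of the 4 motifs had a match in the windows of Mfsd2a, Lpcat3, Pemt or Cept1, which says only that these letters are not there. A match is a run of letters and no measured binding. The study used a wider full CRE, with up to 1 mismatch, and searched for it at CREB sites. Its own measurements of CREB binding were not used here.

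Mfsd2a, the lysophosphatidylcholine carrier, had the highest ratio of the 8 genes and stood at rank 11 of 16047 genes from the highest ratio down. Its probe lies at chr4:122624182-122624241 in the mm9 build, in which the files give all probe positions without saying which part of a transcript they cover. The levels in the 4 fasted livers were 11.25, 12.42, 11.51 and 11.29 on arrays 1 to 4, and in the refed livers they were 10.28, 9.35, 9.59 and 8.65. Every fasted liver was above every refed liver, and the gap was narrowest between the fasted and refed liver of array 1. The log2 ratios were 0.97, 3.07, 1.91 and 2.64, with a mean of 2.15 ± 0.92 (SD, n = 4), or 4.43-fold higher in the fasted state. Without array 3 the mean was 2.23. With the background fitted on all spots, the 55 of high local background included, it was 1.32. Leaving those spots out was a choice made with results of these data known. Because Mfsd2a was chosen with this ratio in view, no p is given for it, and its place past the limits below is a description. Its mean was 2.02 on the arrays with the fasted liver in Cy5 and 2.28 on those with it in Cy3, and the dye term was -0.13 with an adjusted p of 0.824 in limma.

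**Figure D1:**
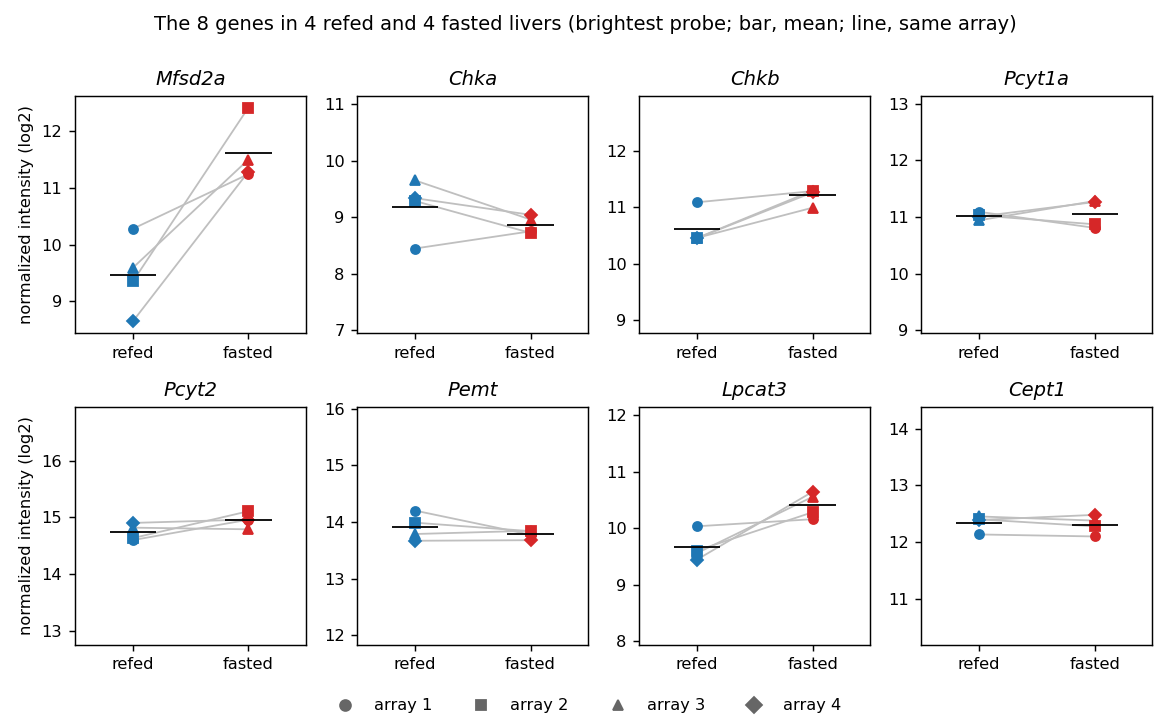
Normalized log2 intensity (vertical axis, equal span in every panel) of the brightest probe of each gene in 4 refed and 4 fasted livers. Symbols give the array, grey lines join the livers of 1 array, and black bars are means. For Mfsd2a the fasted livers lie between 11.25 and 12.42 and the refed livers between 8.65 and 10.28, while the livers of Cept1 overlap.

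MFSD2A is found in endothelium as well as in hepatocytes, so endothelial markers were set beside it. All 3 (Stab2, Pecam1 and Kdr) were kept and 0 were called. Their summed intensity was 4819.9 to 5539 in fasted and 4036 to 4433 in refed livers, which did not overlap, and their mean log2 ratios on arrays 1 to 4 were 0.28, 0.10, 0.20 and 0.25. The part of these cells in the Mfsd2a ratio was not tested. Mfsd2b, the close relative that exports sphingosine 1-phosphate from blood cells, named here for its kinship and with its values known, had log2 ratios of 0.58, 0.17, -0.043 and 0.26 on arrays 1 to 4. Its mean was 0.24 ± 0.26 (SD, n = 4; limma adjusted p of 0.278), beside blood markers whose means were 1.42, -0.27, 1.80 and 0.19 on the same arrays, and their part in it was not tested.

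The choline kinases, which phosphorylate choline at the entry of the CDP-choline pathway, gave unlike values. Chkb, probed at chr15:89257068-89257276, had levels of 11.28, 11.29, 10.99 and 11.26 in fasted and 11.09, 10.46, 10.46 and 10.45 in refed livers. The refed liver of array 1 was above the fasted liver of array 3, so the groups overlapped, and the other 3 refed livers lay within a narrow band below all fasted livers. The log2 ratios were 0.20, 0.84, 0.53 and 0.81, and the mean was 0.59 ± 0.30 (SD, n = 4). That is 1.51-fold, just inside the limit of 1.5-fold used for calls, and 0.61 on the log2 scale without array 3.

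Chka was read by 4 probes on chromosome 19 in mm9. The brightest (A_55_P1956223, chr19:3893508-3893567) had levels of 8.75, 8.72, 8.96 and 9.04 in fasted and 8.45, 9.29, 9.65 and 9.34 in refed livers. The refed liver of array 1 was the lowest of all 8 and the refed liver of array 3, which carried acinar transcripts, was the highest. In log2 ratio the arrays gave 0.30, -0.56, -0.69 and -0.29, with a mean of -0.31 ± 0.44 (SD, n = 4). The sign thus turned on array 1, and the part of the acinar transcripts in these levels was not tested. The neighbouring probe (A_51_P142923, chr19:3893815-3893874) gave 0.30, -0.72, -0.60 and -0.29 with a mean of -0.33 ± 0.45 (SD, n = 4). A probe that the files pair with another Chka transcript (A_52_P329367, chr19:3866971-3867030) gave -0.08, -0.27, -0.62 and -0.25, with a mean of -0.31 ± 0.22 (SD, n = 4). The remaining probe (A_55_P2080956, chr19:3864699-3864758) gave 0.07, -0.37, -0.34 and 0.05 with a mean of -0.15 ± 0.24 (SD, n = 4). All 4 Chka probes had a mean below 0, and in each of them array 1 held the lowest refed level and array 3 the highest. Without array 3 the brightest probe had a mean of -0.18, and without array 1 it was -0.52. The probes share the same livers and are not replicates of each other.

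Pcyt1a encodes the cytidylyl transferase that sets the rate of the CDP-choline pathway. Its levels were 10.81, 10.87, 11.28 and 11.26 in fasted and 11.09, 11.03, 10.94 and 11.01 in refed livers. The refed livers lay close together, and the fasted livers lay below them on arrays 1 and 2 and above them on arrays 3 and 4. The log2 ratios were -0.28, -0.16, 0.34 and 0.26, and the mean was 0.039 ± 0.31 (SD, n = 4). That split followed the dye and thus also the pair of arrays, and these cannot be told apart. The means were -0.22 where the fasted liver carried Cy5 and 0.30 where it carried Cy3. The dye term, which the choice of genes did not use, was -0.26 with an adjusted p of 0.0620 in limma, and such an effect was found in 3 of the 13 probes and in 14.8% of all kept probes. The mean of Pcyt1a thus lies between 2 pairs of arrays of opposite sign.

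Cept1 makes phosphatidylcholine and phosphatidylethanolamine in the last step of both Kennedy branches. It had the smallest spread between arrays of the 8 genes, with fasted levels of 12.10, 12.28, 12.38 and 12.48 and refed levels of 12.13, 12.40, 12.45 and 12.39. The lowest fasted and the lowest refed level were both on array 1. Its log2 ratios ran from -0.12 to 0.09 around a mean of -0.036 ± 0.091 (SD, n = 4). Pcyt2, the cytidylyl transferase of the ethanolamine branch, had log2 ratios of 0.36, 0.47, -0.03 and 0.06 and a mean of 0.22 ± 0.24 (SD, n = 4). Its fasted levels of 14.96, 15.11, 14.79 and 14.96 overlapped the refed levels of 14.60, 14.63, 14.82 and 14.90. The mean was 0.42 with the fasted liver in Cy5 and 0.016 with it in Cy3, and the dye term had an adjusted p of 0.101 in limma, just outside the limit of 0.10.

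Pemt, the hepatocyte enzyme that methylates phosphatidylethanolamine to phosphatidylcholine, was read by 3 probes on chromosome 11, of which 2 overlap. The brightest (A_55_P1970860, chr11:59784123-59784182) had levels of 13.78, 13.84, 13.85 and 13.68 in fasted and 14.20, 13.99, 13.79 and 13.67 in refed livers. The fasted livers lay within the span of the refed livers. Its log2 ratios were -0.43, -0.15, 0.06 and 0.0099, with a mean of -0.13 ± 0.22 (SD, n = 4). The overlapping probe (A_55_P1967295, chr11:59784160-59784219) had a mean of -0.14 ± 0.33 (SD, n = 4) and a dye term of -0.27 with an adjusted p of 0.0716 in limma. The probe upstream of them on the minus strand (A_55_P1970846, chr11:59787580-59787639) had a mean of -0.16 ± 0.20 (SD, n = 4). In all 3 probes the ratios were below 0 on arrays 1 and 2 and near or above 0 on arrays 3 and 4.

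Lpcat3, the acyltransferase that puts polyunsaturated chains back onto lysophosphatidylcholine, was higher in fasted liver on every array. Its probe spans chr6:124653374-124653542. Fasted levels were 10.16, 10.28, 10.55 and 10.64 and refed levels were 10.03, 9.61, 9.56 and 9.45. Every fasted liver lay above every refed liver, with the smallest distance again on array 1. The log2 ratios were 0.13, 0.68, 0.99 and 1.20, and the mean was 0.75 ± 0.47 (SD, n = 4), or 1.68-fold. Without array 3 it was 0.67. The size differed with the dye, and so also between arrays 1 and 2 and arrays 3 and 4. The mean was 0.40 with the fasted liver in Cy5 and 1.10 with it in Cy3. The dye term was -0.35 with an adjusted p of 0.0986 in limma.

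**Figure D2:**
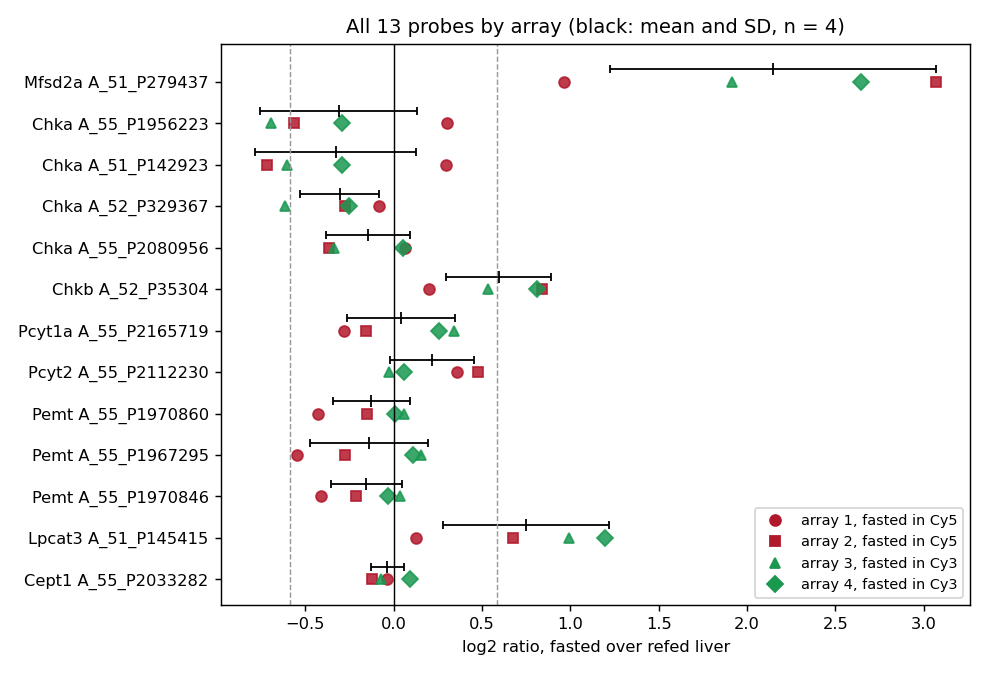
Log2 ratio of fasted over refed liver (horizontal axis) of all 13 probes on 4 arrays, red where the fasted liver carried Cy5 and green where it carried Cy3, with mean and SD in black and dashed lines at 1.5-fold. All 4 Mfsd2a ratios lie beyond the dashed line, and those of Pcyt1a and Pemt separate by colour.

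A gene was called where its brightest kept probe differed at least 1.5-fold with limma's adjusted p below 0.10. Of the 8 genes, 3 were called higher in fasted liver (Mfsd2a, Chkb and Lpcat3) and 0 lower, where 1.82% of the 16047 measured genes were called higher and 2.13% lower. Of the 13 probes 3 were called higher and 0 lower, against 1.7% and 2.08% of all kept probes. In 2 of the 8 (Mfsd2a and Lpcat3) all fasted livers lay above all refed livers, as in 6.04% of all genes, and in 0 they lay below, as in 7.78%. Nothing is read from these counts, since the genes were picked from the same contrast. With the background fitted on all spots 0 of the 8 were called. With median centring in place of loess Mfsd2a alone was, and Chkb at 0.46 and Lpcat3 at 0.62 were not. The median log2 ratio of the 8 was 0.13, against 0.0033 over all measured genes. Array 1 gave the smallest ratio for each of the 3. Without it their means were 2.54 for Mfsd2a, 0.73 for Chkb and 0.96 for Lpcat3, and all 3 passed the limits. With 3 arrays that included array 1, only Mfsd2a did, at 1.84, 2.23 and 1.98 without arrays 2, 3 and 4.

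**Figure D3:**
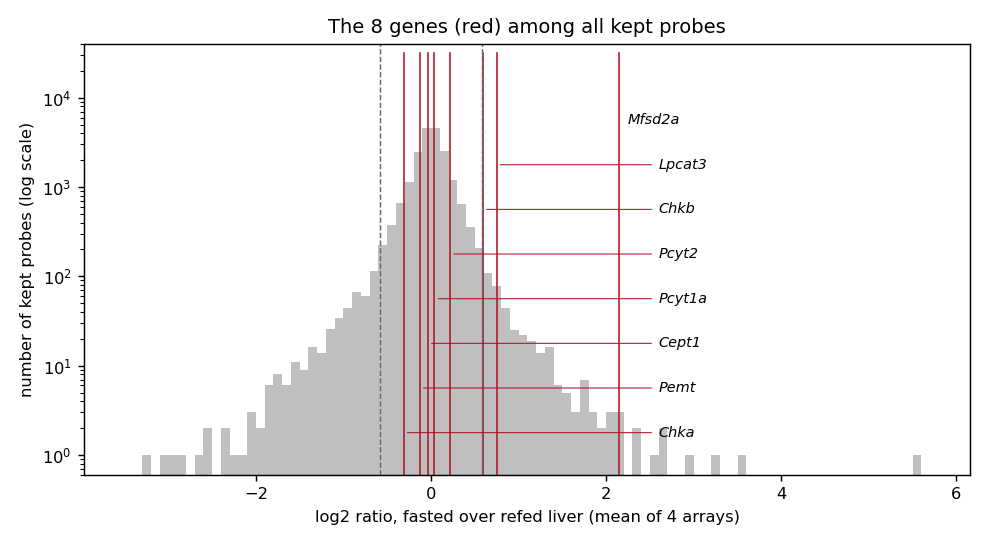
Number of kept probes (vertical, log scale) by mean log2 ratio of fasted over refed liver over 4 arrays (horizontal), with red lines at the brightest probes of the 8 genes and dashed lines at 1.5-fold. Mfsd2a at 2.15 lies in the thin right tail, and 5 of the 8 lines stand between the dashed lines.

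Over the 8 channels, the levels of Chkb and Lpcat3 followed those of Mfsd2a with Pearson r of 0.89 and 0.87. Chka had an r of -0.62, Pcyt2 of 0.54, Cept1 of -0.29, Pcyt1a of 0.048 and Pemt of -0.038. The 8 channels are 8 livers on 4 arrays in 2 conditions, so these values carry no test, and they hold the difference between the conditions that chose the genes. Among 16039 other genes the most alike were LOC629862 (r of 0.977), 1810055G02Rik (0.975), Pear1 (0.972) and the transcription factor gene Nfib (0.971), followed by a transcript without a gene name (0.970). Their own mean log2 ratios were smaller than that of Mfsd2a, at 0.47 for LOC629862, 0.91 for 1810055G02Rik, 0.33 for Pear1 and 0.32 for Nfib.

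A further 55 genes of choline, ethanolamine and phospholipid metabolism were on the array, of which 44 passed the filter. Of those 44, 2 rose (Gpcpd1 and Etnppl) and 0 fell by the same limits, beside 1.82% and 2.13% of all genes, and their median log2 ratio was 0.13. Without the fold limit 5 were higher and 2 lower at an adjusted p under 0.10, where 4.97% and 6.29% of all genes were.

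Gpcpd1, which splits glycerophosphocholine into choline and glycerol 3-phosphate and so returns choline from broken-down phosphatidylcholine, rose most. Its log2 ratios were 1.74, 1.59, 1.98 and 1.89, with a mean of 1.80 ± 0.17 (SD, n = 4; limma adjusted p of 0.00169). Fasted levels were 9.24 to 10.31 and refed levels 7.35 to 8.56, with no overlap, and the 4 arrays lay closer together than those of Mfsd2a. The call was lost with the background fitted on all spots. It was 1 of 15 measured genes of phospholipid breakdown, and the other 14 did not pass. One of those, Pnpla6, a lysophospholipase of the endoplasmic reticulum chosen after its values were seen, had a log2 ratio of -0.47 ± 0.065 (SD, n = 4; limma adjusted p of 0.0198), short of the fold limit.

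Etnppl, which breaks down phosphoethanolamine, was the only one of 7 measured genes of the ethanolamine and phosphatidylserine branch to rise by its brightest probe. Its log2 ratios were 0.72, 0.22, 1.30 and 0.49, with a mean of 0.68 ± 0.46 (SD, n = 4; limma adjusted p of 0.0746). Fasted levels of 12.81 to 13.37 lay above refed levels of 12.07 to 12.59. The call was lost without array 1, 3 or 4, with the background fitted on all spots, with median centring, with a 2-fold limit and without the filter on dim probes. Etnk2, the liver's ethanolamine kinase, was also named after its values were seen, because its 4 probes disagreed. The brightest gave 0.24 ± 0.74 (SD, n = 4), 2 others gave 0.28 and 0.48, and the probe A_55_P2067563 rose by 1.25 ± 0.57 (SD, n = 4; limma adjusted p of 0.0267).

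**Figure D4:**
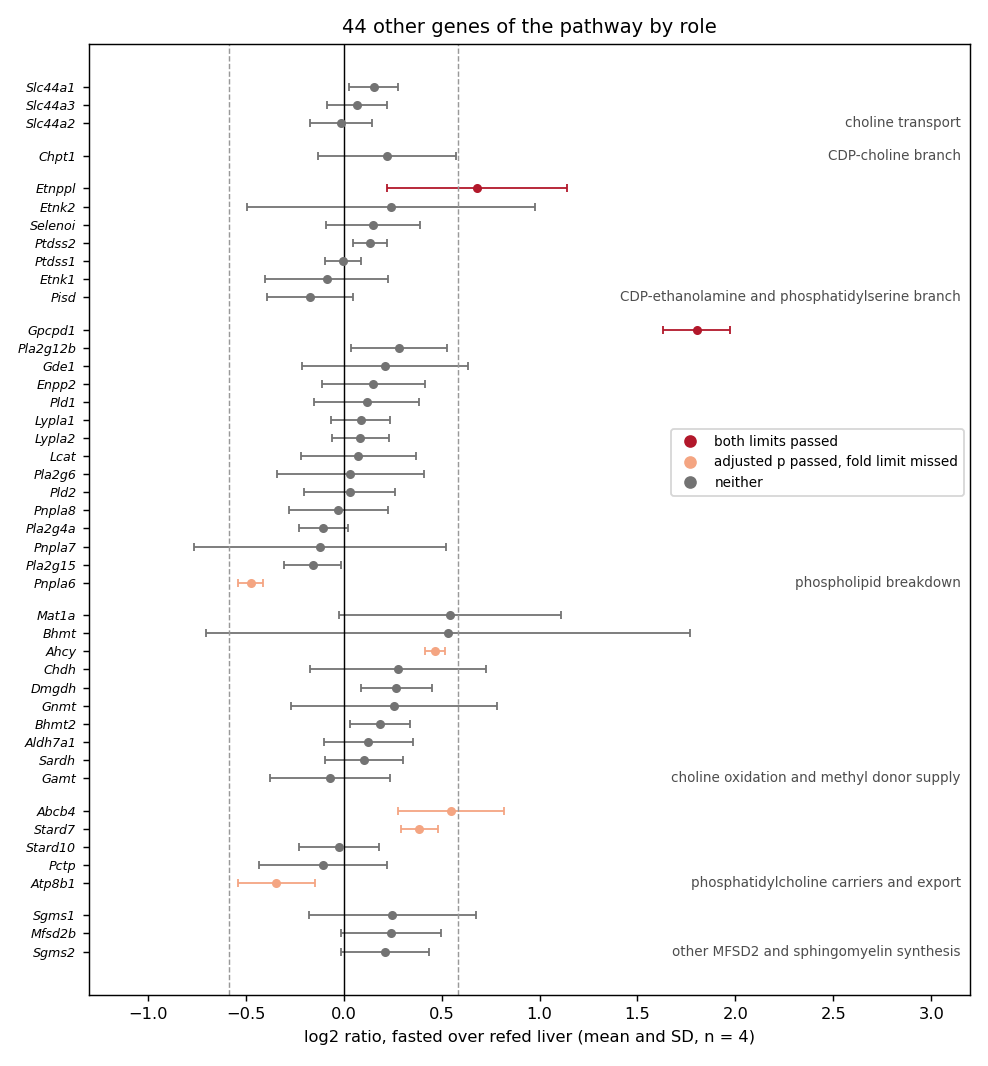
Mean log2 ratio of fasted over refed liver with SD (n = 4) for 44 further genes of the pathway, grouped by role, with dashed lines at 1.5-fold. Gpcpd1 at 1.80 and Etnppl at 0.68 passed both limits, 5 genes passed the adjusted p alone, and the others passed neither.

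Choline transport had 3 measured genes of 6, and none passed. The largest ratio was that of Slc44a1, a choline transporter-like protein, at 0.15 ± 0.12 (SD, n = 4; limma adjusted p of 0.333). In the CDP-choline branch only Chpt1, the Golgi cholinephosphotransferase, was measurable of 3 genes, with 0.22 ± 0.35 (SD, n = 4; limma adjusted p of 0.420). The 5 other lysophospholipid acyltransferases listed (Lpcat1, Lpcat2, Lpcat4, Mboat1 and Mboat2) did not pass the filter on dim probes. Their best probes were well above background in 0 to 3 of the 8 channels, so Lpcat3 was the measurable enzyme of its kind among those listed.

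Choline oxidation and methyl donor supply had 10 measured genes and 0 called, with a median log2 ratio of 0.26. Mat1a, which makes the S-adenosylmethionine that Pemt uses, had the largest ratio, 0.54 ± 0.57 (SD, n = 4; limma adjusted p of 0.196). On arrays 1 and 2 its ratios were 0.82 and 1.20, and on arrays 3 and 4 they were 0.11 and 0.025, and its dye effect had an adjusted p of 0.0388. Ahcy, which clears the S-adenosylhomocysteine left by methylation, varied less between arrays and was named after its values were seen. It had 0.47 ± 0.051 (SD, n = 4; limma adjusted p of 0.0198), short of the fold limit, and its other probes gave 0.47.

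Of 5 carriers and exporters of phosphatidylcholine, 0 were called. The largest ratio was that of Abcb4, the floppase that moves phosphatidylcholine into bile, at 0.55 ± 0.27 (SD, n = 4; limma adjusted p of 0.0474). Its fasted levels of 14.23 to 14.35 lay above its refed levels of 13.60 to 14.08, and without array 1 it passed both limits. Stard7, a phosphatidylcholine carrier to mitochondria, had 0.39 ± 0.093 (SD, n = 4; limma adjusted p of 0.0380), and Atp8b1, a flippase of the bile canaliculus, had -0.34 ± 0.20 (SD, n = 4; limma adjusted p of 0.0965). Both were named after their values were seen, and neither reached 1.5-fold. Sphingomyelin synthesis, which takes its headgroup from phosphatidylcholine, had both genes measured and 0 called, with the larger ratio in Sgms1 at 0.25 ± 0.43 (SD, n = 4; limma adjusted p of 0.445).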

How the data were processed

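Total RNA (200 ng per liver) was labelled with Cy3 or Cy5 and hybridised to Agilent 2-colour whole mouse genome arrays by the authors, who quantified the scans with Feature Extraction. The deposited scanner files hold raw spot intensity and local background. A second table the authors deposited holds log2 ratios normalized by loess in limma, with the background step not given in the sources used here. It was matched by row number, and its columns already run as fasted over refed. Over all spots, its values correlated with the uncorrected scanner ratios at r of 0.34 on array 1 and 0.86 to 0.96 on arrays 2 to 4, and at 0.0088 to 0.053 when matched by spot number.

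limma 3.58.1 (R 4.3.3) read the pixel medians of the 44397 spots on each array. Spots whose local background exceeded 3 times the array's median (55 in all) were left out. The highest local background was 108, 66, 286516 and 443380 on arrays 1 to 4. Background was corrected by normexp with an offset of 50, and ratios were normalized by loess. Flagged spots (197 to 322 per array) and control spots were dropped, and 0 gene spots were saturated. Probes well above background on all 4 arrays in at least 1 condition were kept (19709 of 39429). They were named through RefSeq accession (26055 probes of the array) or through symbol and synonym (4125). Levels per liver come from loess followed by Aquantile. Ratios were tested with lmFit and eBayes, Benjamini-Hochberg adjusted over the kept probes, at an adjusted p under 0.10 and 1.5-fold. The dye effect was a further term. It set arrays 1 and 2 against arrays 3 and 4, which held other livers. Dye and array pair therefore cannot be told apart. The study's methods name SAM, rebuilt here as an alternative.

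The 8 genes, the pathway and marker lists and the step on local background were chosen with earlier results of these data known. Genes named are all 8, every called gene of the pathway lists, the largest ratio in each list, the 5 genes most like Mfsd2a, and those said to be chosen later. Slide and scan were the same for all arrays and are no batch. The steps were tested on simulated data. Alternatives covered background correction, source of values, normalization, dye term, separate channels, test, limits, filter, flags, choice of probe and each array left out.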

Additional observations from a re-analysis of the deposited data

Results flagged for a closer look

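Among 54 sets of 4 values screened for a single array or liver far from the other 3, 4 stood out. Chance alone gives about 1 in 20, which is near that count. The sets come from the same livers and are not independent, so nothing is read from their number. Both livers that set the overlap of Chkb were among them. The refed liver of array 1 had a Chkb level of 11.09, against 10.46, 10.46 and 10.45 in the other refed livers, and the fasted liver of array 3 had 10.99, against 11.28, 11.29 and 11.26 in the other fasted livers. The log2 ratio of Chkb was 0.73 without array 1 and 0.61 without array 3. The mean log2 ratio of the 3 measurable pancreatic acinar markers was -3.93 on array 3, against 0.044, -0.060 and 0.031 on arrays 1, 2 and 4. The mean of the 6 hepatocyte markers was 0.53 on array 2, against 0.18, 0.16 and 0.17 on arrays 1, 3 and 4. Without array 2 the log2 ratio of Mfsd2a was 1.84, that of Chkb 0.51 and that of Lpcat3 0.77, and the part of either marker list in these ratios was not tested.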

How the results depend on the processing

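The log2 ratio of Mfsd2a lay between 1.32 and 2.54 over 15 alternatives, and no alternative turned its sign. It was called in 18 of 19 alternatives that give calls, and Chkb and Lpcat3 in 13 each. Chkb ranged from 0.39 to 0.73 and Lpcat3 from 0.32 to 0.96, and Pcyt1a changed sign (-0.10 to 0.15). With normexp on all spots, 0 of the 8 genes were called, 5 probes were called higher and 15 lower over the whole array, and 0 pathway genes were called higher. Median centring shifted the median over kept probes to -0.15 on array 1 and gave 230 probes higher and 635 lower (26.6% higher against 45.0%), 1 pathway gene higher (Gpcpd1) and 1 lower (Pnpla6), ended the calls of Chkb and Lpcat3, and moved Cept1 to -0.19. Subtraction gave 549 probes higher and 714 lower, and the scanner's processed signals gave 685 and 904. No fold limit gave 936 and 1209 probes, with 5 pathway genes higher and 2 lower. A 2-fold limit gave 99 and 132 probes with 1 pathway gene higher, and no filter on dim probes gave 1. Leaving out each array in turn gave 208 to 413 probes higher and 256 to 525 lower, lowest without array 3, and 1 to 2 pathway genes higher (Gpcpd1 and Abcb4 without array 1). The dye effect was found in 3 of the 13 probes, and in 0 with normexp on all spots or median centring, where 6.44% and 2.86% of all probes had one. Without the replicate block, each channel as a separate sample gave 321 and 394 probes and an Mfsd2a ratio of 2.15. The causes were not tested. Values of dim probes are limited by their signal over background.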
